A study of Mus musculus with 12 samples.

Results

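Colonic expression of 10 TNF and NF-kB feedback genes was examined in mice recovering from dextran sulfate sodium (DSS) colitis with or without oral L-arginine (L-Arg). The genes were chosen by name for their roles in the pathway, with earlier results of these data known. They were Tnf, Tnfrsf1b, Nfkb2, Relb, Nfkbia, Nfkbiz, Bcl3, Tnfaip3, Birc3 and Tnfaip2. All 10 were found among the 19938 genes measured, each through a single probe set. In the colons of DSS mice, Tnfrsf1b and Tnfaip2 were higher than in control colons, by 1.37 ± 0.30 and 1.01 ± 0.23 on the log2 scale (SE, n = 3 mice per group), and Tnf, with a difference of 1.43 ± 0.36, lay just outside the threshold. Tnf and Tnfrsf1b were above every mouse without DSS in all 6 mice given DSS, whether or not they received L-Arg. Tnfaip2 had a mean of 6.97 ± 0.14 in DSS+L-Arg colons, 7.96 ± 0.38 in DSS colons and 6.95 ± 0.44 in control colons (log2 signal, SD, n = 3 each). Its difference between DSS+L-Arg and DSS was not called (adjusted p = 0.0905 by limma). In that comparison 0 of the 10 genes were called, beside 0.522% of all genes called lower and 0.115% called higher.

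All mice were male wild-type C57BL/6 mice, 7 weeks old at the start of the protocol and 8 weeks and 3 days old at sacrifice on day 10, with 3 mice per group and 1 array per mouse. The DSS+L-Arg mice drank DSS at 4% over the first 6 days and L-Arg at 1% over the last 4, and the DSS mice drank the same DSS and then plain water. The control+L-Arg mice drank the 1% L-Arg without DSS, and the control mice received neither agent. The labels describe the tissue as a piece of colon, and the methods of the study describe a proximal and a distal sample combined, so each value is a mixture of epithelium, muscle, stroma and leukocytes. In such bulk tissue a change in the number of cells of a type and a change in RNA per cell cannot be told apart. DSS is a sulfated glucose polymer that damages the lining of the colon, and mice returned to water are in the repair phase, so the measurements describe recovery and not the acute injury.

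TNF is a cytokine made mainly by macrophages and T cells that signals through a pair of receptors, Tnfrsf1a on most cells and Tnfrsf1b on leukocytes and endothelium. Receptor complexes activate the IKK kinases, which mark IkB proteins for degradation and so free NF-kB dimers to enter the nucleus. Among the genes that NF-kB then switches on are its own inhibitors (Nfkbia, Tnfaip3), subunits of its alternative branch (Nfkb2, Relb) and TNF itself, which makes the circuit self-limiting as well as self-amplifying. In the colon this circuit is active in colitis, and blocking TNF is an established therapy in inflammatory bowel disease.

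Promoter sequences were taken from RefSeq (build GRCm38.p6) for the genes on which the results turn, since NF-kB acts through its motif in the DNA. A promoter window spans 300 bases, 250 before and 50 after the transcription start, and 8 of the 10 genes had at least 1 window. The kappaB consensus motif was searched on both strands. It was present in a window of 5 of these 8 genes (Nfkbia, Tnfaip2, Tnfaip3, Nfkb2 and Bcl3), against 9.55% of the 27025 genes with a window and 8.46% of the 32851 windows. The windows are printed 5′ to 3′ along the gene's strand, with the motif in capitals. Nfkbia lies on the minus strand at chr12:55492598-55492897, Tnfaip2 on the plus strand at chr12:111442411-111442710, Nfkb2 (the first of 3 windows) on the plus strand at chr19:46304487-46304786, Tnf on the minus strand at chr17:35201958-35202257 and Tnfrsf1b on the minus strand at chr4:145246821-145247120. The first 3 are shown for their motifs, and Tnf and Tnfrsf1b because their values lay highest above control in the mice given DSS.
Nfkbia: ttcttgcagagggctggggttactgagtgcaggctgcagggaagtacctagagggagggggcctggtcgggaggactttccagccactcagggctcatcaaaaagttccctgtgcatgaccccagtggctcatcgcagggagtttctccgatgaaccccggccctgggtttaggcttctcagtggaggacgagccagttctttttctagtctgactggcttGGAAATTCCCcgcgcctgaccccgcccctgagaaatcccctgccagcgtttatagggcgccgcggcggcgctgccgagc
Tnfaip2: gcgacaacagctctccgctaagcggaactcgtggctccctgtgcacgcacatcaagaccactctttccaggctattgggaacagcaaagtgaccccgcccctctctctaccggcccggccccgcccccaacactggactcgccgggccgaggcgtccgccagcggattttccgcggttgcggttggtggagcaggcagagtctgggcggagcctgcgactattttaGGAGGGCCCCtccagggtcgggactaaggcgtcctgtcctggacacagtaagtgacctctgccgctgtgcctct
Nfkb2: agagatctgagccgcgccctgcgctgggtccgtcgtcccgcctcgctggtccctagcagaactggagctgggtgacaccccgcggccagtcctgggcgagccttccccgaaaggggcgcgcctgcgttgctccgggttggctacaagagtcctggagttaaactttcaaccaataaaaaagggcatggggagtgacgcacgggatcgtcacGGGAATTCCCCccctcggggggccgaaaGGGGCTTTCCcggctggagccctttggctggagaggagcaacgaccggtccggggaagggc
Tnf: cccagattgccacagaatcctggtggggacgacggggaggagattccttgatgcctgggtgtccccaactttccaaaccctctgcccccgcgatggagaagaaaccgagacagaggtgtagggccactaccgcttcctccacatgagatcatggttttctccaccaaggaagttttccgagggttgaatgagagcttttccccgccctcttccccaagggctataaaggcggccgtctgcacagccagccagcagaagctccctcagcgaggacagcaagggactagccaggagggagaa
Tnfrsf1b: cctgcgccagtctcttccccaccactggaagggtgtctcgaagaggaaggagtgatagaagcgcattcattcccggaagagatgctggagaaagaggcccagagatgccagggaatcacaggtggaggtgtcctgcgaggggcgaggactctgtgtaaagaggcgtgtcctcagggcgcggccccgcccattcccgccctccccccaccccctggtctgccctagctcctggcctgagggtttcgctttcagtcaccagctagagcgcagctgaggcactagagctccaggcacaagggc
The Nfkbia window held the motif as GGAAATTCCC, starting 29 bases before the transcription start. In Tnfaip2 the match was GGAGGGCCCC, 24 bases before the start. The Nfkb2 window held GGGAATTCCC and GGAATTCCCC, which overlap and start 39 and 38 bases before the start, and GGGGCTTTCC 11 bases before it. A second Tnfaip3 window held GGGACACCCC and GGAAATCCCC, 125 and 12 bases before its start, and the Bcl3 window held GGGAAGTCCC just after the start. No match was found in the windows of Tnf, Tnfrsf1b and Birc3, which says only that the motif is not in these 300 bases.

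Expression values are log2 signals from the deposited RMA table, so a difference of 1 corresponds to a 2-fold change. Differences were tested with limma over all 12 arrays with 1 mean per group, and a gene was called where its p, adjusted over all 19938 genes by the Benjamini-Hochberg method, was under 0.05. As a second rule, the same fit was read at the thresholds of the study, which are p under 0.01 and more than a 2-fold difference. The 12 arrays had medians between 6.49 and 6.64, and no array repeated another. The epithelial adhesion genes Epcam (12.03 to 12.27) and Cdh1 (12.39 to 12.74) were strongly expressed in all 12 arrays, as the colon label implies, and the median of 10 colon epithelium markers stayed within -0.06 to 0.04 of the control mean in every mouse. DSS 3 stood apart in its myeloid markers, whose values are given with the other cell type markers below.

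The ligand of the circuit, Tnf, encodes the TNF precursor. Its log2 signal was 8.01, 8.20 and 7.84 in DSS+L-Arg mice 1, 2 and 3, and 7.49, 8.55 and 9.33 in DSS mice. In the mice without DSS it was 6.73, 6.94 and 6.68 with L-Arg and 7.21, 7.30 and 6.56 in controls. The lowest mouse given DSS (DSS 1) was thus above the highest mouse without it (control 2), but the DSS mice were widely spread, with an SD of 0.92 against 0.18 in DSS+L-Arg mice and 0.41 in control mice. DSS exceeded control by 1.43 ± 0.36 (SE), a 2.69-fold difference with a 95% confidence interval of 0.64 to 2.22 on the log2 scale, and the adjusted p by limma was 0.0503. Tnf passed the study's thresholds. DSS+L-Arg was lower than DSS by 0.44 in the means (log2 difference -0.44 ± 0.36, adjusted p = 0.617), with overlapping groups, and the interval of -1.23 to 0.35 included both no difference and a loss of most of the increase. DSS+L-Arg exceeded control+L-Arg by 1.23 ± 0.36 (adjusted p = 0.156 by limma), which passed the study's thresholds, and it exceeded control by 0.99 ± 0.36 (adjusted p = 0.301).

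Tnfrsf1b, the TNF receptor of leukocytes and endothelium, followed the same order. DSS+L-Arg mice had log2 signals of 9.75, 9.13 and 9.19, and DSS mice 9.02, 9.76 and 10.53. Control+L-Arg mice had 8.42, 8.15 and 8.42, and control mice 8.44, 8.41 and 8.34. The control mice were within 0.10 of each other, all 6 mice given DSS lay above all 6 without it, and the 2 groups given DSS overlapped. DSS exceeded control by 1.37 ± 0.30, a 2.59-fold difference (95% confidence interval 0.72 to 2.03 on the log2 scale, adjusted p = 0.0283 by limma), which passed both rules. DSS+L-Arg differed from DSS by -0.41 ± 0.30 (95% confidence interval -1.06 to 0.24, adjusted p = 0.568). Against control+L-Arg the difference was 1.03 ± 0.30 (adjusted p = 0.155), and against control it was 0.96 ± 0.30 (adjusted p = 0.246). Expressed as a share of the DSS-control difference, DSS+L-Arg mice stood at 70.0% for Tnfrsf1b and 69.4% for Tnf. Neither share was tested, and both depended on single DSS mice, since the Tnfrsf1b share was 54.9% without DSS 1 and 96.9% without DSS 3, and the Tnf share 51.9% and 99.9% without the same mice.

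The NF-kB subunit genes of the alternative branch varied little. Nfkb2, which encodes p100 and its processed form p52, had log2 signals of 9.17, 9.30 and 9.16 in DSS+L-Arg mice, 9.35, 9.50 and 9.31 in DSS mice, 9.03, 9.13 and 8.83 in control+L-Arg mice, and 9.26, 9.24 and 8.83 in control mice. The DSS mice lay above all the others, by as little as 0.01 over DSS+L-Arg 2, and the difference from control was 0.28 ± 0.13 (adjusted p = 0.255 by limma). DSS+L-Arg differed from DSS by -0.18 ± 0.13 (adjusted p = 0.565). Relb, which encodes the partner of p52, had 8.07, 8.04 and 8.21 in DSS+L-Arg mice, 8.34, 8.29 and 8.01 in DSS mice, 7.99, 8.12 and 7.76 in control+L-Arg mice, and 8.09, 8.04 and 7.96 in control mice. The groups overlapped throughout for Relb, and its difference between DSS and control was 0.19 ± 0.12 (adjusted p = 0.421).

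Among the IkB family genes the inhibitor Nfkbia had the widest difference. Nfkbia encodes IkBα, which holds NF-kB in the cytoplasm and is resynthesized after each round of activation. Its log2 signal was 9.95, 10.26 and 10.09 in DSS+L-Arg mice, 10.12, 11.33 and 10.50 in DSS mice, 9.78, 9.57 and 9.63 in control+L-Arg mice, and 9.97, 9.77 and 9.48 in control mice. The DSS mice lay above the controls with DSS 2 the highest, unlike Tnf and Tnfrsf1b, for which DSS 3 was the highest. The difference between DSS and control was 0.91 ± 0.25, or 1.87-fold, which missed the threshold (95% confidence interval 0.37 to 1.45, adjusted p = 0.0641 by limma). DSS+L-Arg differed from DSS by -0.55 ± 0.25 (95% confidence interval -1.09 to -0.01, adjusted p = 0.360), which left 39.3% of the DSS-control difference (29.1% without control 3 and 62.9% without DSS 2).

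Nfkbiz and Bcl3 encode atypical IkB proteins that act in the nucleus, where they adjust transcription from NF-kB sites. For Nfkbiz the values were 9.41, 9.64 and 9.32 in DSS+L-Arg mice, 9.12, 9.62 and 9.69 in DSS mice, 8.89, 9.06 and 8.86 in control+L-Arg mice, and 9.06, 9.41 and 9.07 in control mice. The DSS+L-Arg and DSS means were close, with a difference of -0.03 ± 0.16 (95% confidence interval -0.37 to 0.32, adjusted p = 0.957 by limma). With 3 mice per group, a decrease or an increase within this interval could not be told from no difference. DSS exceeded control by 0.30 ± 0.16 (adjusted p = 0.324), and DSS+L-Arg exceeded control+L-Arg by 0.52 ± 0.16 (adjusted p = 0.170) with no overlap. Bcl3 was the exception in direction. It had 11.42, 11.64 and 11.43 in DSS+L-Arg mice, 11.05, 10.84 and 11.71 in DSS mice, 11.14, 11.20 and 10.93 in control+L-Arg mice, and 11.30, 11.77 and 11.23 in control mice. The DSS mean was below that of control (-0.23 ± 0.21, adjusted p = 0.611) although DSS 3 was among the highest mice, and the DSS+L-Arg mean was above that of DSS (0.29 ± 0.21, adjusted p = 0.558). All 3 control+L-Arg mice were below the 3 control mice for Bcl3, with a difference of -0.34 ± 0.21 (adjusted p = 0.999).

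Tnfaip3 encodes A20, a ubiquitin-editing enzyme that shuts off signalling from the TNF receptor to IKK, and Birc3 encodes cIAP2, a ubiquitin ligase of the receptor complex that also protects cells from death. Tnfaip3 had 8.88, 8.53 and 8.43 in DSS+L-Arg mice, 8.72, 8.94 and 9.32 in DSS mice, 8.63, 8.12 and 8.33 in control+L-Arg mice, and 9.0, 8.53 and 8.38 in control mice. The DSS mice overlapped with both the DSS+L-Arg and the control mice and lay above the control+L-Arg mice, and neither DSS against control (0.35 ± 0.20, adjusted p = 0.380 by limma) nor DSS+L-Arg against DSS (-0.38 ± 0.20, adjusted p = 0.447) passed. Birc3 varied within every group (SD of 0.25 to 0.53), with 9.72, 8.78 and 9.39 in DSS+L-Arg mice, 9.22, 10.16 and 9.25 in DSS mice, 9.29, 8.84 and 9.25 in control+L-Arg mice, and 9.51, 8.82 and 8.88 in control mice. Its difference between DSS and control was 0.47 ± 0.30 (95% confidence interval -0.18 to 1.13, adjusted p = 0.427), with DSS 2 well above the other DSS mice.

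Tnfaip2, a TNF-inducible gene first found in endothelium and expressed in myeloid cells, did not overlap between the groups given DSS. It had log2 signals of 6.81, 7.07 and 7.01 in DSS+L-Arg mice, against 7.67, 7.82 and 8.38 in DSS mice. Control+L-Arg mice had 6.75, 6.76 and 7.14, and control mice 6.66, 7.45 and 6.74. Every DSS mouse was above every mouse of the other 3 groups, and the DSS+L-Arg mice lay within the range of the controls. DSS exceeded control by 1.01 ± 0.23, a 2.01-fold difference (adjusted p = 0.0333 by limma). DSS+L-Arg differed from DSS by -0.99 ± 0.23 (95% confidence interval -1.49 to -0.50, adjusted p = 0.0905 by limma), and it fell just short of the study's fold threshold. DSS+L-Arg and control differed by 0.01 ± 0.23 (95% confidence interval -0.48 to 0.51).

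**Figure D1:**
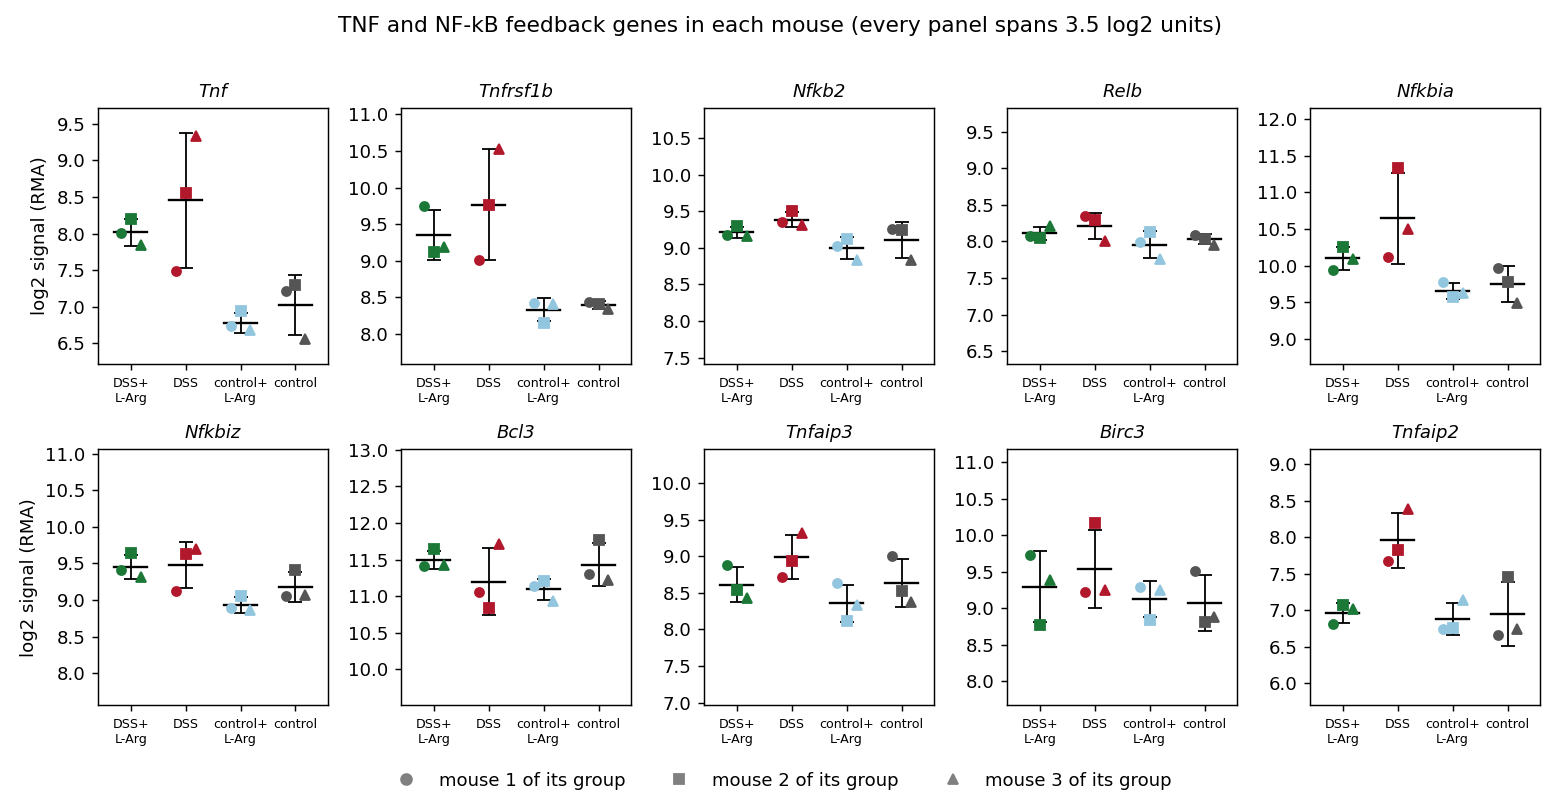
Log2 signal (y axis, RMA) of the 10 genes in each mouse by group (x axis: DSS+L-Arg, DSS, control+L-Arg, control), with the group mean and SD in black and symbols giving the mouse number within its group (n = 3 per group). For Tnf and Tnfrsf1b the 6 mice given DSS lie above the 6 others, while for Tnfaip2 only the 3 DSS mice without L-Arg do.

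The 10 genes were next set side by side for each comparison. With DSS alone, 2 of the 10 were called higher than in control and 0 lower, against a background of 1.80% of all genes called higher and 2.23% called lower. Before adjustment 5 of the 10 had p under 0.05, beside 19.6% of all genes. By the study's thresholds 3 were higher (Tnf, Tnfrsf1b and Tnfaip2), where 1.32% of all genes were. The groups did not overlap for 5 genes, all higher (Tnf, Tnfrsf1b, Tnfaip2, Nfkbia and Nfkb2), against 10.7% of all genes, and 9 of the 10 means were above control, with a median difference of 0.41 beside -0.01 over all genes. The count of 2 calls depended on single arrays. It was 0 without control 1, control 3 or DSS 2, 1 without control 2, control+L-Arg 1, DSS 3 or DSS+L-Arg 3, and 4 without DSS 1, when Tnf was called with a difference of 1.91 (adjusted p = 0.00251). The count by the study's thresholds ranged from 0 to 4 with each array left out in turn, and was 0 without DSS 3 and 1 without control 3.

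With L-Arg after DSS, 0 of the 10 genes were called against DSS by limma, beside 0.522% of all genes called lower and 0.115% called higher, and 2 of the 10 (Tnfaip2 and Nfkbia) had p under 0.05 before adjustment, beside 13.5% of all genes. SAM, the permutation method of the study, has a smallest adjusted p of 0.1 over all genes in this comparison and so could make no call at the adjusted threshold. Read at the study's thresholds it found 0 of the 10 genes lower, beside 0.843% of all genes, and 0 higher. The groups did not overlap for Tnfaip2 and Nfkb2, both lower in DSS+L-Arg, where 5.60% of all genes were. The means of 9 of the 10 were lower in DSS+L-Arg, with a median difference of -0.31 beside 0.06 over all genes. By the study's thresholds 0 of the 10 were lower (0.843% of all genes), and 1 was without DSS 1, DSS 2, DSS+L-Arg 2 or DSS+L-Arg 3. The DSS arrays are in both this comparison and that with control, so a high or low DSS array moves both differences in opposite directions.

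Without DSS, L-Arg left 0 of the 10 genes called by limma, as of all genes (0.00%), with adjusted p of 0.999 throughout. Unadjusted p under 0.05 was reached by 0 of the 10, beside 3.44% of all genes. The means of 9 of the 10 were lower than in control, with differences between -0.34 for Bcl3 and 0.06 for Birc3 and a median of -0.10 beside -0.01 over all genes, and the groups did not overlap for 1 gene (Bcl3, lower), where 6.71% of all genes were lower without overlap. When the effect of L-Arg after DSS was compared with its effect without DSS in the same fit, 0 of the 10 were called (0.0752% of all genes), and 1 had p under 0.05 before adjustment, beside 10.8% of all genes. That gene was Tnfaip2, whose L-Arg effect was lower by 0.93 ± 0.32 after DSS (adjusted p = 0.342 by limma). For Bcl3 the difference of effects was 0.63 ± 0.29 in the other direction (adjusted p = 0.469).

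The DSS+L-Arg mice were also set against both groups without DSS. Against control, 0 of the 10 genes were called by limma, beside 0.0301% of all genes called higher and 0.0351% called lower. Before adjustment 2 had p under 0.05 (Tnf and Tnfrsf1b, beside 12.6% of all genes), and the same 2 were higher without overlap, where 13.5% of all genes were. DSS+L-Arg exceeded control+L-Arg in the means of all 10 genes and without overlap in 6 of them (Tnf, Tnfrsf1b, Nfkbia, Nfkbiz, Nfkb2 and Bcl3), against 12.9% of all genes. None of the 10 was called by limma (0 of 10, beside 0.201% of all genes called higher), 3 had p under 0.05 before adjustment (15.6% of all genes), and by the study's thresholds 2 were higher (Tnf and Tnfrsf1b, beside 0.296% of all genes). The 2 became 0 without any 1 of the control+L-Arg mice or without DSS+L-Arg 1, and 1 without DSS+L-Arg 2. Conversely, 1 of the 10 was called without DSS 1 (Tnf) and 1 without DSS 3 (Tnfrsf1b), although these mice are not in the comparison and enter only through the spread.

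**Figure D2:**
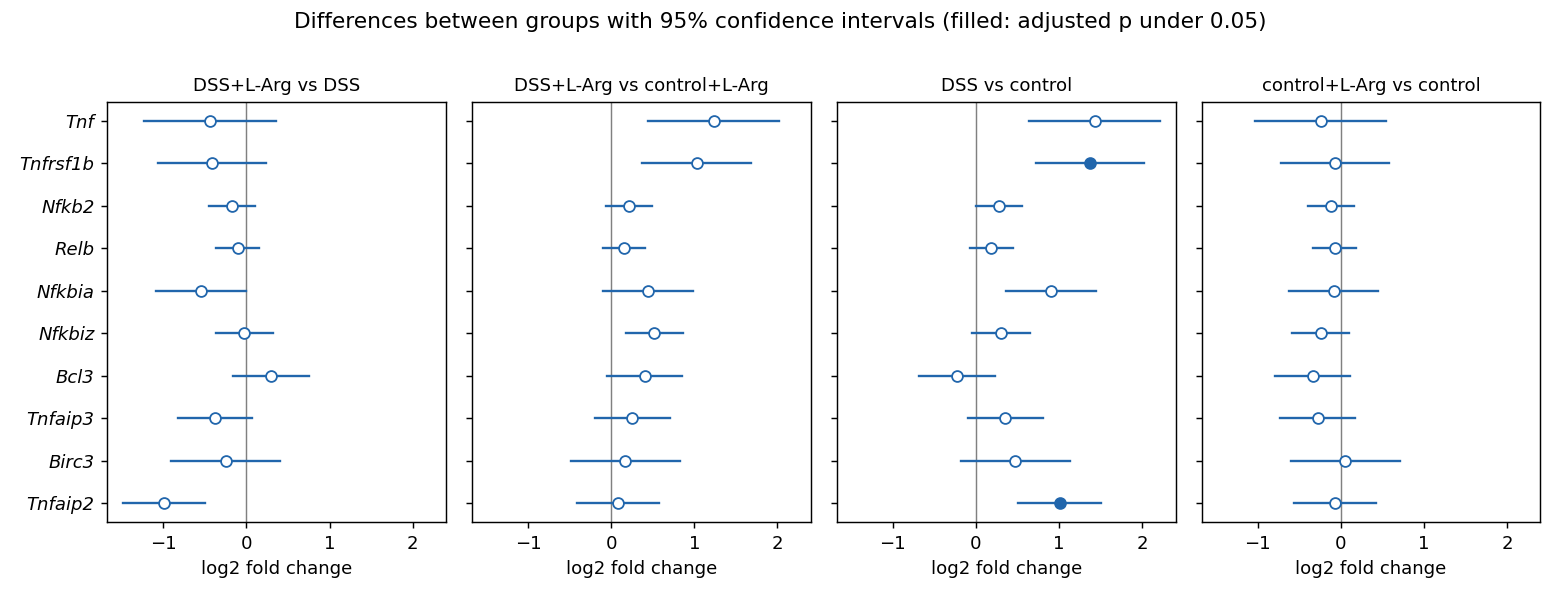
Log2 fold change (x axis) of each of the 10 genes in 4 comparisons, with 95% confidence intervals from limma as lines, and filled points for an adjusted p under 0.05. Only Tnfrsf1b and Tnfaip2 in DSS against control are filled, and the Tnf and Tnfrsf1b intervals lie above 0 in both comparisons of mice with and without DSS.

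Because Tnf and Tnfrsf1b separated mice by DSS and not by L-Arg, the 6 mice given DSS were also compared with the 6 without it in the same limma fit, a contrast chosen after the values had been seen. The fit called 4 of the 10 genes higher and 0 lower, beside 3.04% and 3.96% of all genes. These were Tnfrsf1b (1.20 ± 0.21) and Tnf (1.33 ± 0.26), whose values prompted the contrast, and Nfkbia (0.67 ± 0.17, adjusted p = 0.0412) and Nfkbiz (0.41 ± 0.11, adjusted p = 0.0491). All 4 are a description here, since the values of all 10 genes had been seen. Tnfaip2 had 0.54 ± 0.16 with an adjusted p of 0.0650. Tnf and Tnfrsf1b did not overlap between the 6 mice given DSS and the 6 without, beside 1.83% of all genes on the higher side. Of the other pathway genes named below, Tnfrsf1a, Tnfrsf9, Tnfsf9, Rel, Socs3, Saa3 and Nos2 also lay higher without overlap. Nfkbia lost its call without 9 of the 12 arrays and Nfkbiz without 10 of them. The count ranged from 2 to 5 with each array left out in turn. It was 2 without control 1, control 3, or any 1 of the control+L-Arg or DSS+L-Arg mice. Within the mice that drank L-Arg the difference was 1.23 for Tnf and 1.03 for Tnfrsf1b, and within the mice that did not it was 1.43 and 1.37.

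The genes also differed among the 3 DSS mice. DSS 3 was the highest of the 3 for 6 genes, DSS 2 for 3 and DSS 1 for 1 (Relb), and DSS 1 was the lowest for 7. Over the 12 arrays the 45 pairs among the 10 genes had Pearson correlations between -0.47 (Bcl3 with Birc3) and 0.94 (Tnf with Tnfrsf1b), with a median of 0.56. These are descriptions, since the arrays share their groups. Among 9959 non-member genes above the median signal, those most like Tnf over the 12 arrays by Pearson's r were Ccdc116 (0.97), Eml2 (0.95), Bcl2l1 (0.95), Rdh10 (0.95) and Cast (0.95). Those most like the mean profile of the 10 genes were Rdh10 (0.97), Gnai3 (0.96), Cast (0.96), Socs3 (0.96) and Brms1 (0.96). Ranking by Spearman's rho kept 0 of the 5 genes nearest to Tnf and 1 of the 5 nearest to the mean profile (Brms1), so the order of such genes depends on the measure.

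Markers of infiltrating myeloid cells also differed between the groups, but not in step with Tnf and Tnfrsf1b in every mouse. The median of 12 neutrophil markers, as a deviation from the control mean, was 0.56, 0.14 and 0.30 in DSS+L-Arg mice and 2.56, 1.63 and 4.38 in DSS mice, and lay between -0.07 and 0.05 in control+L-Arg mice and between -0.26 and 0.52 in control mice. For 11 monocyte and macrophage markers the median was 0.36, 0.34 and 0.19 in DSS+L-Arg mice, 0.97, 0.98 and 2.38 in DSS mice, -0.02 to 0.78 in control+L-Arg mice and -0.18 to 0.08 in control mice. In DSS against control, 9 of the 12 neutrophil markers and 6 of the 11 monocyte and macrophage markers were called higher, and 4 of each were called lower in DSS+L-Arg against DSS. S100a8 and S100a9, the defining neutrophil genes, were higher in DSS than in control colons by 3.91 ± 0.63 and 3.57 ± 0.51, and the macrophage receptor gene Csf1r by 1.03 ± 0.21. Adgre1, at 0.56 ± 0.19, was not called and was below the median signal of all genes in all 12 arrays. Mpo, on the neutrophil list, differed by -0.016 ± 0.139 in DSS against control and by 0.222 ± 0.139 in DSS+L-Arg against DSS. Cx3cr1, on the monocyte and macrophage list, differed by -0.115 ± 0.158 and 0.259 ± 0.158, without overlap in both. Neither gene was called, and both went against their lists. DSS 3 had the highest value of both lists and of Tnf, Tnfrsf1b and Tnfaip2, while Nfkbia was highest in DSS 2, which had the lowest neutrophil median of the 3 DSS mice. DSS 1 had a higher neutrophil median than DSS 2 but the lowest Tnf and Tnfrsf1b of the 3. All 3 DSS+L-Arg mice were above DSS 1 for Tnf and Tnfrsf1b, with lower medians of both lists. Of 7 T cell markers, 0 were called in DSS against control and 0 in DSS+L-Arg against DSS. In DSS+L-Arg mice the monocyte and macrophage median was above all 3 control mice, as Tnf and Tnfrsf1b were, and the neutrophil median overlapped with control. Against the control+L-Arg mice the monocyte and macrophage median overlapped, and the neutrophil median was above all 3, as Tnf and Tnfrsf1b were. The median of 6 smooth muscle markers was lower in both groups given DSS, at -1.24 to -0.28 in DSS+L-Arg mice and -1.67 to -1.07 in DSS mice, beside -0.71 to 1.11 in control+L-Arg mice and -0.45 to 0.76 in control mice, with 0 of the 6 called in DSS against control.

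Some mast cell, endothelial and fibroblast markers differed between groups as well. Of 5 mast cell markers, the mucosal mast cell proteases Mcpt1 and Mcpt2 were called higher in both groups given DSS and 0 were called in DSS+L-Arg against DSS. Kit, on the same list, went the other way. It was called lower in all mice given DSS against all without, where Mcpt1, Mcpt2 and Cpa3 were called higher. Kit was not called in either group given DSS against control. Its difference from control was -0.94 ± 0.38 in DSS mice (adjusted p = 0.196 by limma) and -0.78 ± 0.38 in DSS+L-Arg mice (adjusted p = 0.427). Mcpt2 had log2 signals of 7.70, 6.64 and 7.78 in DSS+L-Arg mice, 7.51, 7.58 and 7.90 in DSS mice, 5.07, 5.22 and 4.58 in control+L-Arg mice, and 5.42, 4.56 and 4.59 in control mice, so that all 6 mice given DSS lay above all 6 without it, as for Tnf and Tnfrsf1b. The Mcpt2 difference was 2.52 ± 0.31 for DSS+L-Arg against control (adjusted p = 0.0334 by limma), 2.81 ± 0.31 for DSS against control (adjusted p = 0.00149) and -0.29 ± 0.31 for DSS+L-Arg against DSS (adjusted p = 0.714). For Mcpt1 these differences were 2.25, 2.31 and -0.05, and the median of the 5 mast cell markers was 0.21 to 0.32 in DSS+L-Arg mice, 0.30 to 0.35 in DSS mice, 0.06 to 0.24 in control+L-Arg mice and -0.12 to 0.07 in control mice.

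The median of 6 endothelial markers was -0.45 to -0.19 in DSS+L-Arg mice, 0.05 to 0.70 in DSS mice, -0.22 to 0.56 in control+L-Arg mice and -0.17 to 0.14 in control mice. As for Tnfaip2, the DSS+L-Arg and DSS mice did not overlap. In DSS+L-Arg against DSS, 0 of the 6 were called, but the endothelial adhesion genes Cdh5 (-1.72 ± 0.34, adjusted p = 0.0519 by limma) and Pecam1 (-1.11 ± 0.23, adjusted p = 0.0627) and the sialomucin gene Emcn (-1.79 ± 0.41, adjusted p = 0.0905) were lower by the study's thresholds. Of 5 fibroblast markers, 2 were called higher in DSS than in control by limma. They were Dcn, which encodes the matrix proteoglycan decorin (1.54 ± 0.27, adjusted p = 0.0116), and Pdgfra (1.34 ± 0.32, adjusted p = 0.0409). Dcn alone was called lower in DSS+L-Arg than in DSS (-1.37 ± 0.27, adjusted p = 0.0489 by limma). Dcn also lay higher without overlap in control+L-Arg than in control (0.82 ± 0.27), but was not called there. The fibroblast median was 0.05 to 0.42 in DSS+L-Arg mice, 0.18 to 1.16 in DSS mice, 0.02 to 1.21 in control+L-Arg mice and -0.14 to 0.19 in control mice. The part of any of these cell populations in the differences of the 10 genes was not tested.

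**Figure D3:**
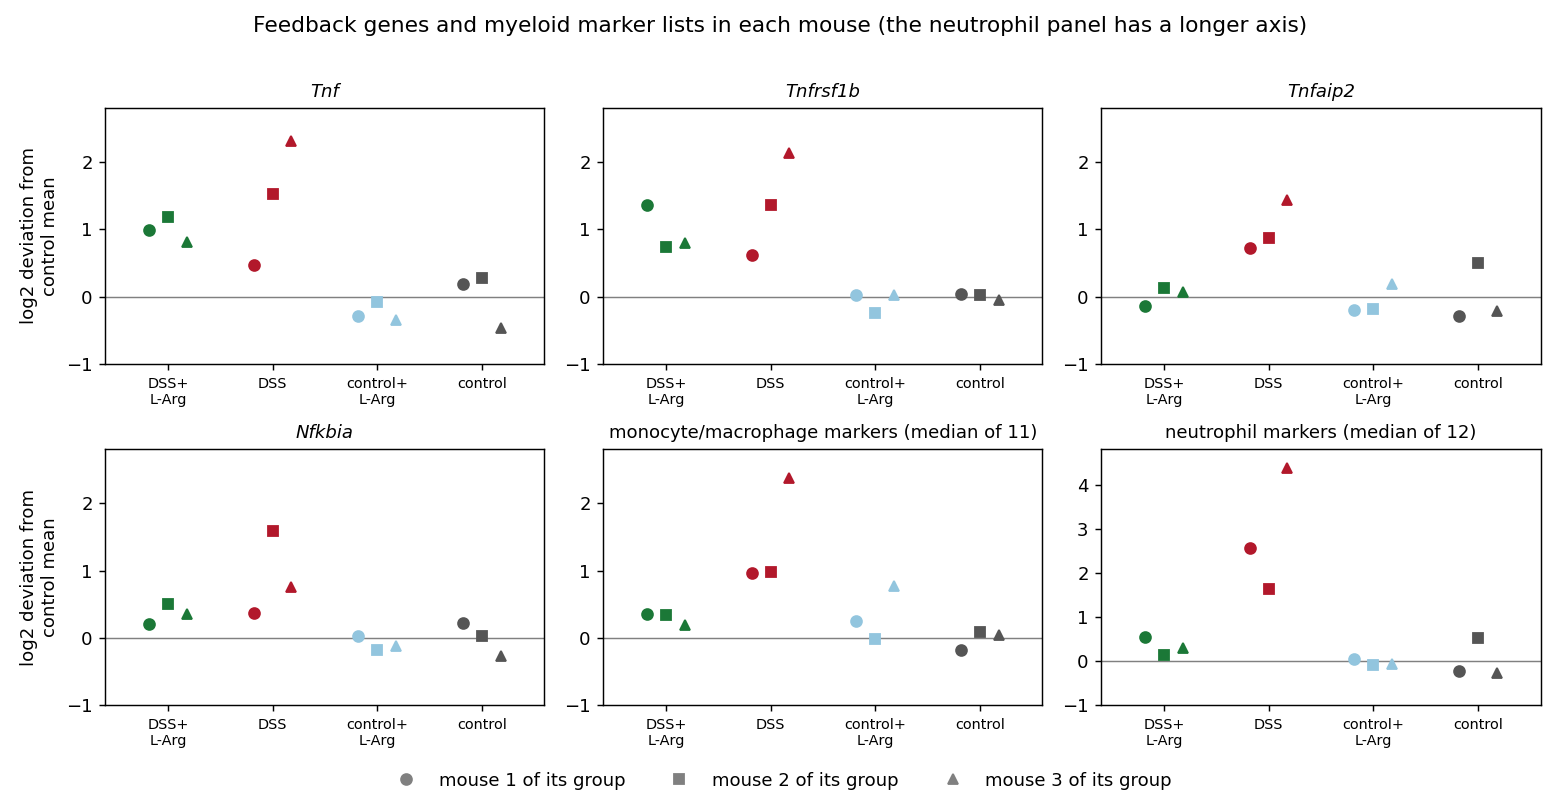
Deviation from the control mean on the log2 scale (y axis) in each mouse by group (x axis) for Tnf, Tnfrsf1b, Tnfaip2 and Nfkbia and for the medians of 11 monocyte and macrophage and 12 neutrophil markers, with symbols giving the mouse number. In DSS+L-Arg mice both marker medians lie below all 3 DSS mice, and Tnf and Tnfrsf1b overlap with the DSS mice.

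A further 117 genes of the pathway, grouped by role, were then examined for the 2 comparisons that bear on injury and L-Arg. The lists were written with earlier results of these data known, so the counts below are descriptions and not independent tests. In DSS against control colons 18 of them were called higher and 0 lower, beside 1.80% and 2.23% of all genes, and in DSS+L-Arg against DSS colons 0 were called higher and 8 lower, beside 0.115% and 0.522%. Of 13 other ligands, 0 were called in either comparison. The largest difference from control was that of Tnfsf9, the ligand of 4-1BB (0.86 ± 0.22, adjusted p = 0.0512 by limma), followed by Ltb, a lymphotoxin subunit (0.37 ± 0.15, adjusted p = 0.179). Tnfsf10, which encodes the death ligand TRAIL, was 0.84 ± 0.19 above DSS in DSS+L-Arg colons (adjusted p = 0.0843), and Tnfsf13b, which encodes BAFF, differed by 0.33 ± 0.23.

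Of 19 other receptors, 2 were called higher with DSS and 0 were called with L-Arg after DSS. Tnfrsf1a, the broadly expressed TNF receptor, had 10.68, 11.04 and 10.86 in DSS mice and 10.40, 10.43 and 10.28 in control mice, a difference of 0.49 ± 0.10 (adjusted p = 0.0247 by limma) beside the 1.37 of Tnfrsf1b. Tnfrsf9, which encodes 4-1BB, was higher by 0.91 ± 0.11 (adjusted p = 0.00208). For both receptors every mouse given DSS, with or without L-Arg, lay above every mouse without DSS, as for Tnfrsf1b. With L-Arg after DSS, the receptors that differed most were Eda2r (-0.69 ± 0.49) and Fas (-0.46 ± 0.22), and neither passed. None of the 5 genes for TNF shedding was called in either comparison. Rhbdf1 and Rhbdf2, which bring the TNF sheddase to the cell surface, differed from control by 0.46 ± 0.22 and 0.34 ± 0.15, and Timp3, an inhibitor of the sheddase, differed from DSS by -1.02 ± 0.36 in DSS+L-Arg colons (adjusted p = 0.261), with Rhbdf1 at -0.39 ± 0.22.

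Between receptor and nucleus, few genes were called. Of 18 adaptors and kinases, 1 was called in each comparison, and it was Map3k8, which encodes the kinase TPL2. Map3k8 had 6.45, 6.50 and 6.52 in DSS+L-Arg mice, 7.08, 7.56 and 7.99 in DSS mice, and 6.93, 6.61 and 6.47 in control mice. It was higher in DSS than in control by 0.87 ± 0.19 (adjusted p = 0.0302) and in DSS+L-Arg it differed from DSS by -1.05 ± 0.19 (adjusted p = 0.0395 by limma), with no overlap between the DSS+L-Arg and DSS mice, as for Tnfaip2. Traf6, the adaptor of interleukin-1 and Toll-like receptors, differed from control by 0.56 ± 0.23 (adjusted p = 0.196), and Ripk3, the necroptosis kinase, differed from DSS by 0.60 ± 0.21 (adjusted p = 0.260), and neither was called.

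The IKK and NIK kinases had 0 of 6 called, with Tbk1 at 0.45 ± 0.12 (adjusted p = 0.0578) and Ikbkb at 0.21 ± 0.11 in DSS against control, and Ikbke at 0.41 ± 0.21 and Tbk1 at -0.25 ± 0.12 in DSS+L-Arg against DSS. Of the Rel subunits measured, 0 of 2 were called. Rel, the subunit of activated leukocytes, differed by 0.96 ± 0.27 between DSS and control (adjusted p = 0.0731 by limma) and by -0.52 ± 0.27 between DSS+L-Arg and DSS, and Rela, the ubiquitous subunit, by 0.14 ± 0.12 and -0.17 ± 0.12. The other IkB genes had 0 of 6 called. Nfkbid and Nfkbie differed by 0.67 ± 0.32 and 0.34 ± 0.11 in DSS against control, and by -0.52 ± 0.32 and -0.36 ± 0.11 in DSS+L-Arg against DSS, so that Nfkbia had the largest difference from control of the IkB genes measured.

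Of the 18 calls in DSS against control, 13 were in the list of other target genes and 2 among the other inhibitors. The 20 other inhibitors also held 1 gene called lower in DSS+L-Arg than in DSS. Socs3, the feedback inhibitor of cytokine receptors that signal through STAT3, was higher in DSS than in control by 2.46 ± 0.38 (adjusted p = 0.00692 by limma), and in DSS+L-Arg it differed from DSS by -1.01 ± 0.38 (adjusted p = 0.288). Irak3, an inhibitor of Toll-like receptor signalling expressed in myeloid cells, was higher by 1.11 ± 0.17 with DSS (adjusted p = 0.00724) and differed from DSS by -1.12 ± 0.17 in DSS+L-Arg colons (adjusted p = 0.0230).

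Of 28 other NF-kB target genes, 13 were called higher in DSS than in control and 6 lower in DSS+L-Arg than in DSS, with list medians of 0.63 and -0.54. Among the called genes the largest increases were those of the acute-phase gene Saa3 (4.38 ± 0.37), the siderophore-binding Lcn2 (4.34 ± 0.46), the neutrophil chemokine Cxcl2 (4.21 ± 0.86) and the inducible nitric oxide synthase gene Nos2 (2.93 ± 0.57), and Lcn2 is also one of the neutrophil markers. In DSS+L-Arg colons Lcn2 differed from DSS by -3.70 ± 0.46 (adjusted p = 0.00651 by limma) and Saa3 by -3.15 ± 0.37 (adjusted p = 0.00536). Nos2 had 10.23, 8.97 and 8.44 in DSS+L-Arg mice, 8.81, 9.46 and 11.00 in DSS mice, 6.31, 6.47 and 6.38 in control+L-Arg mice, and 6.84, 7.57 and 6.06 in control mice. Like Tnf and Tnfrsf1b it lay above all mice without DSS in all 6 mice given DSS, and its difference between DSS+L-Arg and DSS was -0.55 ± 0.57 (adjusted p = 0.699).

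**Figure D4:**
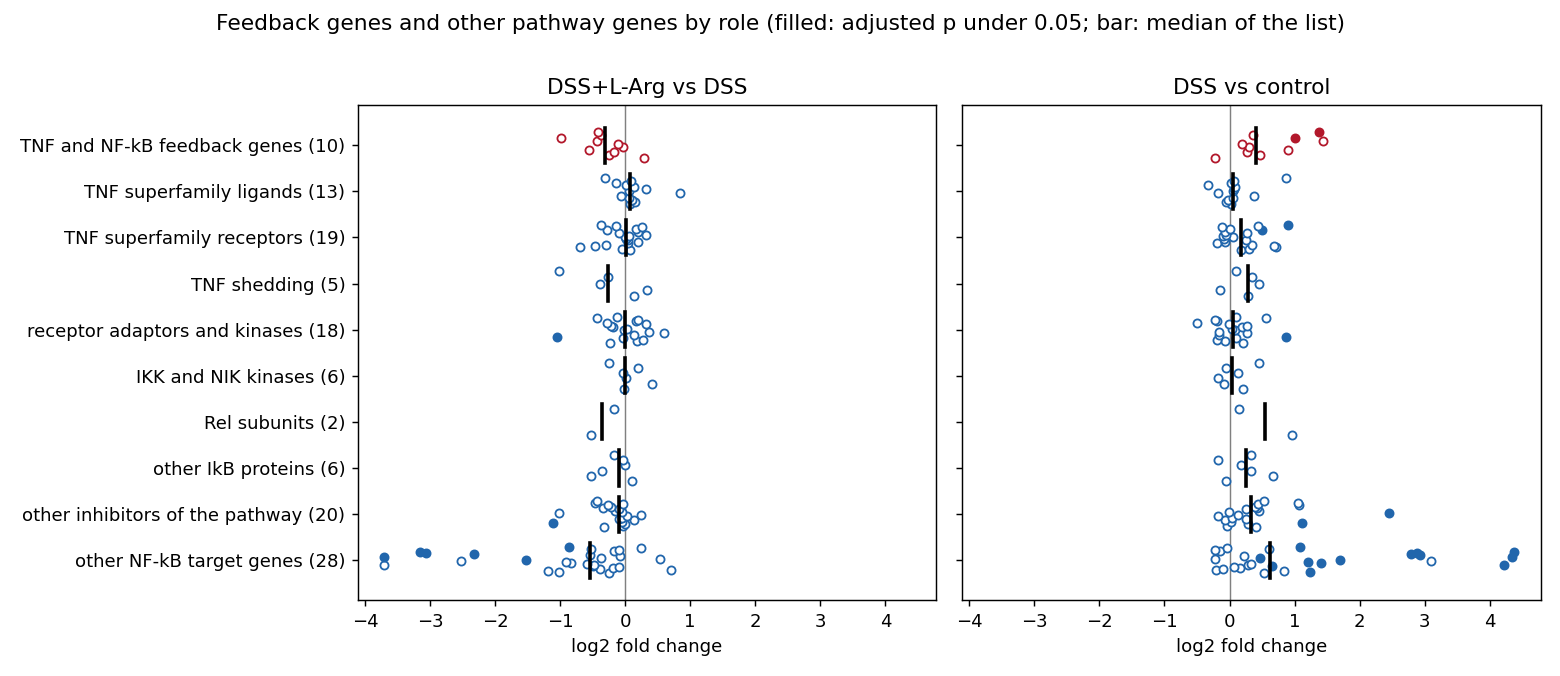
Log2 fold change (x axis) of the 10 feedback genes (red) and of 117 other pathway genes (blue) by role, in DSS+L-Arg against DSS and in DSS against control, with the number of genes in parentheses, filled points for an adjusted p under 0.05 and bars at the list medians. The filled points lie mostly among the other NF-kB target genes (13 of 28 in DSS against control), and the feedback genes have medians of -0.31 and 0.41.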

How the data were processed

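Build mm9, RMA and Affymetrix Expression Console 1.1 are named in the notes of the authors. The deposited values are log2 signals per probe set, which RMA corrects for background, quantile-normalizes over the arrays and summarizes, so a shift of most genes together would be removed. Precision is limited by the number of mice, since arrays have no depth, with 3 per group. Genes were assigned to the 35556 probe sets by GEO's platform annotation. Those with several genes (1621) or not in that annotation (12146) were left out, the brightest was kept where a gene had several (999 genes), and 19856 of 19938 genes had an Entrez identifier in the RefSeq table.

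Differences were fitted with limma 3.58.1 in R 4.3.3 (8 residual degrees of freedom), and tables were made with Python 3.11.15 and pandas 2.3.3. The pipeline was tested on simulated data. The labels call the samples biological replicates. The 10 genes and the lists were chosen with earlier results of these data known. All 10 genes are named, and in each list up to 4 called genes by size for DSS against control and up to 2 for DSS+L-Arg against DSS, or the 2 largest where fewer than 2 were called. Arrays numbered alike deviated together in every pair between control+L-Arg and control (correlations of 0.205, 0.477 and 0.261), and the labels state no pairing. In the other comparisons not every pair did so. The correlations were 0.408, 0.305 and -0.05 between DSS+L-Arg and control, and 0.351, 0.206 and -0.281 between DSS+L-Arg and control+L-Arg. Alternatives were a fit of the compared groups alone, a replicate block, centring, a further quantile normalization, a filter on dim genes (above the 30th percentile in 3 arrays), averaged probe sets, a robust trended prior, SAM, and leaving out each array. Promoter coordinates are those of GRCm38.p6 and were not converted to mm9.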

Additional observations from a re-analysis of the deposited data

How the results depend on the processing

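In 400 single-gene differences refitted under other settings, 388 kept their direction and side of the threshold, 4 lost and 5 gained a call, and 3 changed sign. The sign changes were small. Tnfaip3 in DSS+L-Arg against control was 0.034 with centred arrays and 0.015 after quantile normalization, in place of -0.02, and Nfkbiz in DSS+L-Arg against DSS was 0.002 with centred arrays, in place of -0.03. The 2 feedback genes called higher in DSS than in control became 0 when only the 2 groups were fitted and 0 by SAM, and the 18 other pathway genes became 9 and 0, in fits with fewer arrays or, for SAM, with a smallest adjusted p of 0.1. By the study's thresholds the 3 feedback genes higher in DSS than in control were 3 by SAM and 2 when only the 2 groups were fitted. The 8 pathway genes lower in DSS+L-Arg than in DSS became 5 and 0 under the same settings, and the counts over all genes became 87 higher and 62 lower for DSS against control (in place of 359 and 444), and 0 higher and 26 lower for DSS+L-Arg against DSS (in place of 23 and 104), and each was 0 by SAM. By the study's thresholds 1 feedback gene, in place of 0, was higher in DSS+L-Arg mice than in controls with centred arrays and 1 after quantile normalization. In DSS+L-Arg against control+L-Arg, 1 gene (Tnf) in place of 0 was called when only these groups were fitted.

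The replicate block changed no call of the 10 genes. It called 2 in DSS against control, 0 in DSS+L-Arg against DSS and 4 in the mice given DSS against those without. In control+L-Arg against control, where arrays numbered alike deviated together, it called 0.

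Leaving out each array in turn gave 0 to 4 feedback genes called higher in DSS than in control, 0 to 4 by the study's thresholds, 0 to 1 lower in DSS+L-Arg than in DSS by those thresholds, 0 to 1 called higher for DSS+L-Arg against control+L-Arg and 0 to 2 by the study's thresholds, 0 to 1 for the difference of L-Arg effects by those thresholds, and 2 to 5 in all mice given DSS against all without. The other pathway genes ranged from 9 to 29 and from 3 to 9, and all genes from 110 to 653 higher and 87 to 745 lower in DSS against control, and from 0 to 115 and 17 to 208 in DSS+L-Arg against DSS. The differences that changed sign without 1 array were all uncalled. They were those of DSS+L-Arg against control for Tnfaip3 (-0.16 to 0.16), Tnfaip2 (-0.13 to 0.26), Nfkb2 (-0.04 to 0.18) and Bcl3 (-0.038 to 0.23), of DSS+L-Arg against DSS for Nfkbiz (-0.20 to 0.081) and Birc3 (-0.46 to 0.062), of DSS+L-Arg against control+L-Arg for Birc3 (-0.043 to 0.43), and of all mice given DSS against all without for Bcl3 (-0.041 to 0.18). The causes of these changes were not tested.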
